A study of Mus musculus with 6 samples.

Results

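The enzymes of the mitochondrial tricarboxylic acid (TCA) cycle were examined in CD4 T cells with and without AMPK, the kinase that senses low cellular energy. The 9 genes were listed by symbol: Cs, Idh3a, Idh2, Ogdh, Dlst, Sucla2, Suclg1, Fh1 and Mdh2. All 9 were found among the 23282 genes of the table, and all 9 passed the filter on low values that left 11279 genes for testing. CD4 T cells came from spleen and lymph nodes of C57BL/6 mice, 3 samples per group. WT mice carried Prkaa1 fl/fl without Cre. AMPK KO mice carried Prkaa1 fl/fl with CD4Cre, which deletes the gene of the AMPK α1 catalytic subunit in cells that have expressed CD4, a stage that T cells of the CD8 lineage also pass through. Both groups were rested for 1 h in RPMI-1640 and then stimulated with anti-CD3 and anti-CD28, each at 2 µg/mL. The labels give 24 h for this stimulation and the methods give 6 h, so the time is uncertain. The methods describe female mice of 6 to 8 weeks.

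The TCA cycle joins acetyl-CoA to oxaloacetate and oxidizes the resulting citrate back to oxaloacetate, which yields carbon dioxide, reduced cofactors for the respiratory chain and a high-energy phosphate bond. Resting T cells run the cycle mainly for energy, and activated T cells also draw citrate, α-ketoglutarate and other intermediates from it for lipid, amino acid and chromatin chemistry. AMPK acts on metabolism through phosphorylation of enzymes and, more slowly, through transcription of mitochondrial genes.

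Levels are log2 of the normalized CPM (reads scaled to the size of the library) plus 1, and differences are AMPK KO minus WT on that log2 scale. Each library holds reads from the 3′ ends of transcripts (QuantSeq), so a level counts transcript ends and was not divided by length. Between 9575096 and 10168121 reads fell on genes in the WT libraries and between 10515155 and 11185360 in the AMPK KO libraries. The 9 enzymes together took 4646 to 6656 reads per library, which was 0.0485% to 0.0595% of all reads on genes. Their summed level was 541 ± 24.0 CPM in WT and 558 ± 24.3 CPM in AMPK KO (SD, n = 3).

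Several properties of the libraries bear on every difference given here. The share of Rn45s, the ribosomal RNA precursor, ranged from 20.7% to 24.9% across WT libraries and from 8.48% to 10.8% across AMPK KO libraries. Of 10 tested macrophage markers 5 were higher in AMPK KO (Csf1r, Cd68, C1qa, C1qb and C1qc) and 0 lower, and the summed level of all 12 was 346 to 381 CPM in WT against 628 to 1206 CPM in AMPK KO; Mertk was at 0 in the WT libraries. Of 9 tested T cell markers 3 were lower (Cd3e, Cd3g and Cd28), with sums of 2106 to 2353 against 1590 to 2018 CPM. Of 8 neutrophil markers 2 were lower (Ltf and Ngp), with sums of 789 to 907 against 517 to 760 CPM, while Retnlg and Mmp8 had values of 0.59 and 0.49 in the other direction, Retnlg with groups that did not overlap. Of 4 plasma cell markers Jchain was higher, with sums of 82.8 to 85.2 against 365 to 446 CPM. Of 4 NK cell markers limma and voom called 0, 2 were at an unadjusted p under 0.05, and the sums of the list were 38.2 to 56.6 against 63.2 to 89.0 CPM. Over all tested genes 5.65% passed the adjusted threshold (limma, adjusted p under 0.05), 21.3% had an unadjusted p under 0.05 and 25.6% had groups that did not overlap. These shares count both directions. Genes higher and lower in AMPK KO were 287 and 350 for the first share. They were 1194 and 1211 for the second, and 1303 and 1584 for the third. The CD8 markers Cd8a and Cd8b1 summed to 231 to 305 CPM in WT and 321 to 376 CPM in AMPK KO, so the labelled CD4 T cells were not free of CD8 transcripts. Xist, the transcript of the inactive X chromosome, had log2 levels of 0.93 to 2.16 in WT and 7.55 to 7.92 in AMPK KO. Of 4 Y-linked genes 3 were lower in AMPK KO, and Ddx3y was at 8.44 to 8.53 in WT and 6.93 to 7.28 in AMPK KO. These levels conflict with the female mice of the methods, and the sex of the cells cannot be told apart from the genotype. Every AMPK KO library held both Xist and Y-linked transcripts, and how many mice a library holds is not given in the sources used here. How far any of these features contributes to the enzyme levels was not tested. In bulk samples, fewer cells of a type and less RNA per cell cannot be told apart.

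Prkaa1 itself had log2 levels of 4.64, 5.24 and 4.86 in the WT libraries and 4.08, 4.72 and 4.67 in the AMPK KO libraries. The groups overlapped, and the difference of -0.43 (SE 0.25) had an adjusted p of 0.357 (limma); it was -0.22 without AMPK KO replicate 1 and -0.26 without WT replicate 2. A 3′ read does not check the deletion where the removed exons lie elsewhere in the gene, and their position is not given in the sources used here.

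None of the 9 enzymes passed an adjusted p of 0.05 (limma with Benjamini-Hochberg adjustment over all tested genes), where 5.65% of all tested genes did. limma's voom on the recovered reads also called 0. At an unadjusted p under 0.05 there were 2 of the 9, Cs and Idh2, against 21.3% of all tested genes. All 3 AMPK KO libraries lay on one side of all 3 WT libraries for 1 of the 9, Cs, against 25.6% of all tested genes. The first and the last of these shares lay below that over all genes, and the second lay close to it. The median difference of the 9 was 0.09, beside 0.02 over all tested genes, and the single values ran from -1.02 for Idh2 to 0.95 for Fh1, with 5 above 0 and 4 below. The median was -0.031 without WT replicate 1, 0.20 without WT replicate 2 and 0.022 with scaling to reads outside Rn45s, so leaving out 1 library turned its sign.

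**Figure D1:**
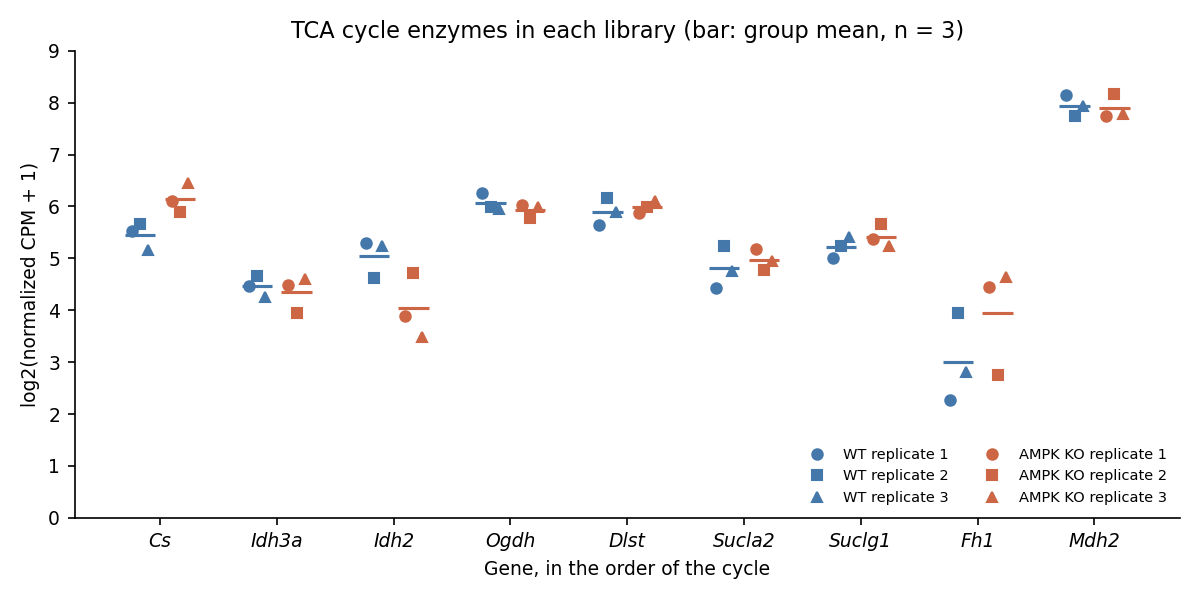
Log2 level of the 9 enzymes (vertical axis, log2 of normalized CPM plus 1) in each library, by gene along the horizontal axis; symbols mark replicates, colours the groups and short bars the group means (n = 3). Cs is the gene whose AMPK KO points all lie above its WT points, Idh2 is lower in 2 of 3 AMPK KO libraries than in any WT library, and Fh1 is widely spread within both groups.

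The start sites of 4 cycle genes are shown because these genes had the clearest separations between the groups, as seen after their values: Cs, Idh3b and Dld, the cycle genes with groups that did not overlap, and Idh2, with the largest lower value. Each window runs from 250 bases before to 50 bases after the RefSeq start (GRCm38.p6), in the direction of transcription. Capitals mark matches on either strand to the CCAAT box (CCAAT) and the GC box (GGGCGG); where the reverse strand matches, the capitals read ATTGG or CCGCCC. The windows are chr10:128337477-128337776 on the plus strand for Cs, chr7:80115301-80115600 on the minus strand for Idh2, chr2:130284402-130284701 on the minus strand for Idh3b and chr12:31351422-31351721 on the minus strand for Dld.
Cs: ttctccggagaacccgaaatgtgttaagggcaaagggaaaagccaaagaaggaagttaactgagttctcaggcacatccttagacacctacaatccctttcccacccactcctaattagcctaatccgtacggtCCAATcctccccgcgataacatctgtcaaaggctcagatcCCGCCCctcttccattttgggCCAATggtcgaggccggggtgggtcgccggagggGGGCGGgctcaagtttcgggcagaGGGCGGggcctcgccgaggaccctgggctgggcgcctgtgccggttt
Idh2: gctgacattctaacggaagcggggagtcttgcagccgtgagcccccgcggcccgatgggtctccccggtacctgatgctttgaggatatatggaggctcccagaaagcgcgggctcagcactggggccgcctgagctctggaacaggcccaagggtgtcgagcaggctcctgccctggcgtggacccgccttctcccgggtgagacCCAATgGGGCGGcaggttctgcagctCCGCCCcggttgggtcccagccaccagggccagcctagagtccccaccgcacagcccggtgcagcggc
Idh3b: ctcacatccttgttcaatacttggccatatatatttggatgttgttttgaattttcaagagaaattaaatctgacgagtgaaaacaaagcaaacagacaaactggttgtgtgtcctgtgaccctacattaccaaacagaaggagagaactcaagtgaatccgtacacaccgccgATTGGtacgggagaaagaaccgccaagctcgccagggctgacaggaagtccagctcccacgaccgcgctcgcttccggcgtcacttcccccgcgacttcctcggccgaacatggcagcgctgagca
Dld: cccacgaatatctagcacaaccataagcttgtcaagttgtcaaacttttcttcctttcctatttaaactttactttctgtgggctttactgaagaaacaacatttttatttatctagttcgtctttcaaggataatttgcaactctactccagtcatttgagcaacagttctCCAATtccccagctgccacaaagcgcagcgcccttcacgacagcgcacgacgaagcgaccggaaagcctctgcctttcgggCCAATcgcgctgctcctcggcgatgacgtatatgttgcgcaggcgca

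Each of these 4 windows held at least 1 CCAAT box, Cs and Dld with a pair each, and Cs and Idh2 also held GC boxes. A CCAAT box was present in 37.4% and a GC box in 35.7% of all 32851 windows in the RefSeq table. Windows were found for 15 of 17 genes of the mitochondrial cycle (8 of the 9 enzymes), and 9 of the 15 held a CCAAT box and 10 a GC box. The core site of NRF1 (CGCATGCG), a regulator of mitochondrial genes, was found in 1 of the 15 (Ogdh), and in 1.87% of all windows. The site of the oestrogen-related receptors (AAGGTCA) was found in 2 (Ogdh and Sdhd), and in 4.72% of all windows. The YY1 motif (AAGATGGC) was found in 1 (Idh3g), and in 2.75% of all windows, and the E-box (CACGTG) in 1 (Ogdh), and in 7.15% of all windows. The counts are of genes with a match in any of their windows, while the shares are of single windows; Ogdh has 6 windows, and its matches to the NRF1, oestrogen-related receptor and E-box letters lie in windows of its later starts. Both strands were searched, and no 2 of these motifs overlap in letters within the windows shown. A match is a run of letters and no evidence of binding.

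Cs encodes citrate synthase, which opens the cycle and is widely used as a marker of mitochondrial content. It lies at chr10:128337734-128362479 on the plus strand (GRCm38). Its log2 level was 5.53, 5.66 and 5.16 in the WT libraries and 6.10, 5.90 and 6.45 in the AMPK KO libraries, on 308 to 1025 reads. All AMPK KO values were above all WT values, 1.62-fold on average. The difference was 0.70 (SE 0.20, 95% interval 0.27 to 1.12), with an adjusted p of 0.0555 in limma. The exact two-sided permutation test gave 0.1, the smallest p that 3 against 3 samples allow. Without AMPK KO replicate 2 the difference was 0.82 with an adjusted p of 0.0134, and without WT replicate 2 it was 0.80 with 0.0453, whereas the highest adjusted p on leaving out any single library was 0.244. With either replicate 2 left out, genotype is partly confounded with the library sets described below.

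Idh3a encodes the catalytic subunit of the NAD-dependent isocitrate dehydrogenase, the step that commits isocitrate to oxidation in the mitochondrion. Its log2 level was 4.47, 4.67 and 4.26 in WT and 4.49, 3.95 and 4.61 in AMPK KO, so the groups overlapped. The difference was -0.12 (SE 0.26, 95% interval -0.67 to 0.43, adjusted p of 0.837 in limma). Without AMPK KO replicate 2 its sign turned, to 0.08.

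Idh2 encodes the NADP-dependent mitochondrial isocitrate dehydrogenase, which makes α-ketoglutarate and supplies NADPH within the organelle. It lies at chr7:80094846-80115392 on the minus strand. Its log2 level was 5.30, 4.63 and 5.23 in WT and 3.89, 4.72 and 3.49 in AMPK KO, on 122 to 353 reads. Replicates 1 and 3 of AMPK KO were below every WT library, and AMPK KO replicate 2 was above WT replicate 2. The difference was -1.02 (SE 0.31, 95% interval -1.68 to -0.36), which is 2.03-fold lower in AMPK KO, with an adjusted p of 0.0669 in limma. The exact permutation p was 0.2. Without AMPK KO replicate 2 the difference was -1.36 (adjusted p of 0.00438), and without WT replicate 2 it was -1.23 (adjusted p of 0.043); the highest adjusted p on leaving out 1 library was 0.271.

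Ogdh and Dlst encode the first 2 components (E1 and E2) of the α-ketoglutarate dehydrogenase complex, which oxidizes α-ketoglutarate to succinyl-CoA. Ogdh had log2 levels of 6.25, 5.98 and 5.95 in WT and 6.03, 5.78 and 5.98 in AMPK KO. Dlst had 5.65, 6.15 and 5.89 in WT and 5.87, 5.99 and 6.10 in AMPK KO. Both genes overlapped between the groups and had narrow intervals. The difference was -0.13 for Ogdh (SE 0.17, 95% interval -0.50 to 0.24, adjusted p of 0.709 in limma). It was 0.09 for Dlst (SE 0.18, 95% interval -0.30 to 0.48, adjusted p of 0.82 in limma), and -0.03 without WT replicate 1. A change of either gene by a full log2 unit lies outside these intervals.

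Sucla2 and Suclg1 encode the ADP-forming β subunit and the shared α subunit of succinyl-CoA synthetase, which makes ATP or GTP at the substrate level. Sucla2 had log2 levels of 4.43, 5.24 and 4.75 in WT and 5.18, 4.77 and 4.95 in AMPK KO. Suclg1 had 5.02, 5.23 and 5.42 in WT and 5.37, 5.65 and 5.23 in AMPK KO. Neither gene separated the groups. The difference was 0.16 for Sucla2 (SE 0.24, 95% interval -0.36 to 0.68, adjusted p of 0.759 in limma), and -0.03 without WT replicate 1. It was 0.20 for Suclg1 (SE 0.20, 95% interval -0.23 to 0.63, adjusted p of 0.618 in limma).

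Fh1 encodes fumarate hydratase, which turns fumarate into malate and whose loss lets fumarate accumulate. It lies at chr1:175600374-175625635 on the minus strand and overlaps Kmo on the other strand, and whether strand was used in counting is not given in the sources used here. Its log2 level was 2.26, 3.95 and 2.81 in WT and 4.45, 2.76 and 4.64 in AMPK KO, on only 35 to 285 reads. The lowest AMPK KO value, of replicate 2, was below 2 of the 3 WT values. The difference was 0.95 (SE 0.50, 95% interval -0.11 to 2.00), with an adjusted p of 0.292 in limma and an exact permutation p of 0.3. Without AMPK KO replicate 2 it was 1.54 with an adjusted p of 0.0211, and it was 0.57 to 1.42 with adjusted p values of 0.104 to 0.658 on leaving out any other library, so a single library decides whether Fh1 passes. Kmo had log2 levels of 1.23 to 2.82 over the 6 libraries.

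Mdh2 encodes mitochondrial malate dehydrogenase, which closes the cycle by remaking oxaloacetate. It was the most abundant of the 9, at 212 to 285 CPM. Its log2 level was 8.16, 7.73 and 7.93 in WT and 7.74, 8.16 and 7.79 in AMPK KO, so the groups covered nearly the same range. The difference was -0.05 (SE 0.16, 95% interval -0.39 to 0.30, adjusted p of 0.904 in limma). With 2118 to 3061 reads per library, its interval was the narrowest of the 9, and its sign changed with the library left out.

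Ordered by mean log2 level over the 6 libraries, the enzymes ran from Mdh2 (7.92) through Ogdh (6.00), Dlst (5.94), Cs (5.80), Suclg1 (5.32), Sucla2 (4.89), Idh2 (4.54) and Idh3a (4.41) to Fh1 (3.48). Mdh2 exceeded Ogdh in 6 of 6 libraries, by 1.92 ± 0.24 (SD). The order differed between the group means. In WT it was Mdh2 (7.94), Ogdh (6.06), Dlst (5.90), Cs (5.45), Suclg1 (5.22), Idh2 (5.05), Sucla2 (4.81), Idh3a (4.46) and Fh1, and in AMPK KO it was Mdh2 (7.89), Cs (6.15), Dlst (5.99), Ogdh (5.93), Suclg1 (5.42), Sucla2 (4.97), Idh3a (4.35), Idh2 (4.03) and Fh1 (3.95); the Fh1 values of WT are given above. Below Mdh2, every neighbouring pair in the order over the 6 libraries changed places in at least 1 library. Ogdh and Dlst changed places most evenly, each higher in 3 libraries, and so did Idh2 and Idh3a. The gap between Idh2 and Idh3a was 0.14 ± 0.86 (SD), and it was above 0 in the libraries with high Idh2.

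**Figure D2:**
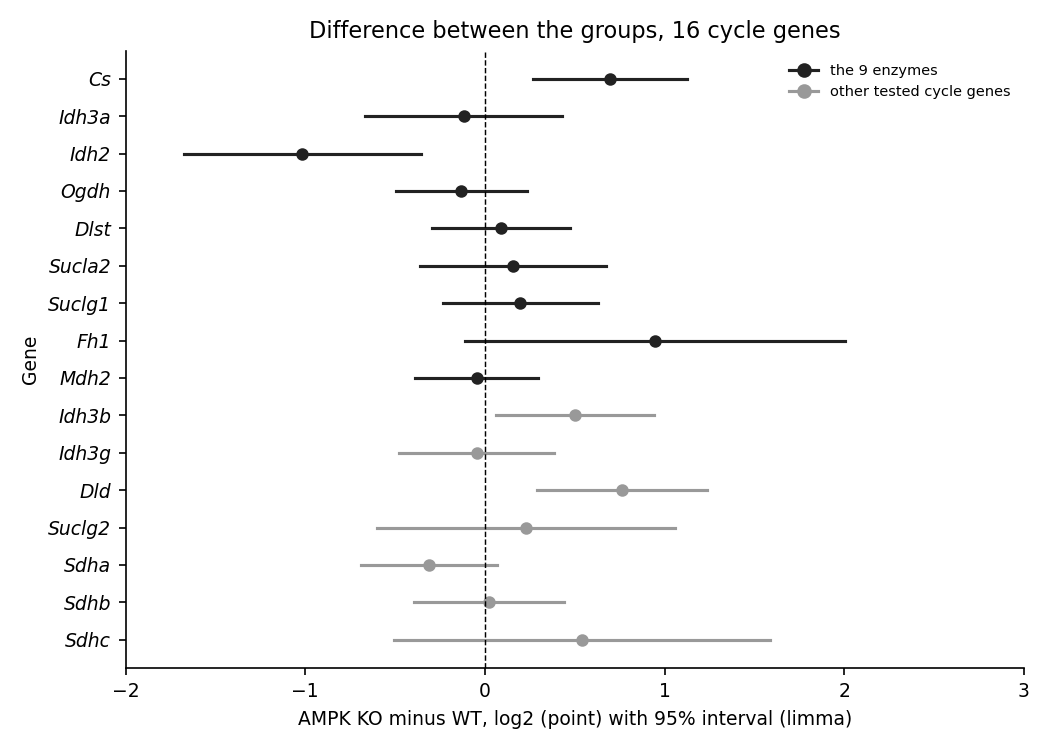
Difference between AMPK KO and WT for 16 tested genes of the mitochondrial cycle (horizontal axis, log2; points with 95% intervals from limma), the 9 enzymes in black and the other cycle genes in grey. The intervals of Cs, Idh2 and Dld lie farthest from 0, and among the 9 enzymes those of Ogdh, Dlst and Mdh2 are the narrowest.

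A further 8 genes of the cycle were examined. Of these, 7 were tested, 0 passed an adjusted p of 0.05 in limma or in voom, and 2 (Idh3b and Dld) were higher at an unadjusted p under 0.05. Their median difference was 0.23, and the same 2 genes had groups that did not overlap. Over all tested genes these shares, with both directions counted, were 21.3% and 25.6%, close to 2 of 7. Dld encodes the E3 component of the pyruvate, α-ketoglutarate and branched-chain dehydrogenase complexes. Its log2 level was 4.44, 4.85 and 4.92 in WT and 5.54, 5.19 and 5.77 in AMPK KO, a difference of 0.76 (SE 0.22, adjusted p of 0.0582 in limma), and 0.92 (adjusted p of 0.0136) without AMPK KO replicate 2; on leaving out any other single library the adjusted p was 0.0658 to 0.241. All 3 AMPK KO libraries were above all WT libraries. Idh3b, a regulatory subunit of the NAD-dependent isocitrate dehydrogenase, had 4.73, 5.22 and 4.99 in WT and 5.51, 5.29 and 5.65 in AMPK KO, a difference of 0.50 (SE 0.21, adjusted p of 0.177 in limma). The other subunits of that enzyme had values closer to 0, Idh3a -0.12 and Idh3g -0.05 (adjusted p of 0.928 in limma), and both change sign on leaving out a library. Idh3g had log2 levels of 5.96, 5.95 and 5.77 in WT and 5.80, 6.25 and 5.49 in AMPK KO. Idh3g is X-linked. Likewise, Dld, Dlst and Ogdh of the α-ketoglutarate dehydrogenase complex had 0.76, 0.09 and -0.13.

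Suclg2, the GDP-forming partner of Sucla2, had 3.72, 3.55 and 2.71 in WT and 3.64, 2.84 and 4.18 in AMPK KO, a difference of 0.23 (SE 0.39, adjusted p of 0.783 in limma).

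Succinate dehydrogenase, which is both a cycle enzyme and complex II of the respiratory chain, has 4 subunits. Sdha, the flavoprotein, had 7.54, 7.36 and 7.07 in WT and 6.90, 7.34 and 6.80 in AMPK KO, a difference of -0.31 (SE 0.18, adjusted p of 0.337 in limma). The Sdha difference was -0.20 (adjusted p of 0.682) without WT replicate 1 and -0.48 (adjusted p of 0.0562) without AMPK KO replicate 2. Sdhb, the iron-sulphur subunit, had 7.85, 7.37 and 7.36 in WT and 7.49, 7.96 and 7.19 in AMPK KO, a difference of 0.02 (SE 0.20, adjusted p of 0.966 in limma). Neither separated the groups. The membrane anchor Sdhc had 3.26, 4.21 and 3.28 in WT and 4.65, 2.68 and 5.05 in AMPK KO, a difference of 0.54 (SE 0.49, adjusted p of 0.564 in limma); it was 1.27 with an adjusted p of 0.0181 without AMPK KO replicate 2, but 0.080 with 0.957 without AMPK KO replicate 3, 0.28 with 0.859 without AMPK KO replicate 1 and 0.38 and 0.39 without WT replicates 1 and 3, and with a term for the library sets described next it was 0.024. The other anchor, Sdhd, had 0, 3 and 0 reads in WT and 10, 0 and 18 reads in AMPK KO and was not tested.

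The spread within the groups had a shape of its own. The first principal component of the deviations from the group means, over all tested genes, held 42.5% of their variance and set WT replicates 1 and 3 and AMPK KO replicate 2 apart from WT replicate 2 and AMPK KO replicates 1 and 3. Neither set is given by the labels. Between these sets, within genotype, Fh1 was 1.41 higher in the second in WT and 1.79 higher in AMPK KO, and its mean difference of 1.60 was exceeded by 54 of 10381 tested genes with an annotated 3′ end (0.52%). Idh2 ran the other way, 0.64 lower in WT and 1.03 lower in AMPK KO. Mdh2 was 0.31 and 0.40 lower, Cs 0.31 and 0.37 higher and Idh3a 0.30 and 0.60 higher. The remaining 4 enzymes had mean differences of -0.17 to 0.47.

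**Figure D3:**
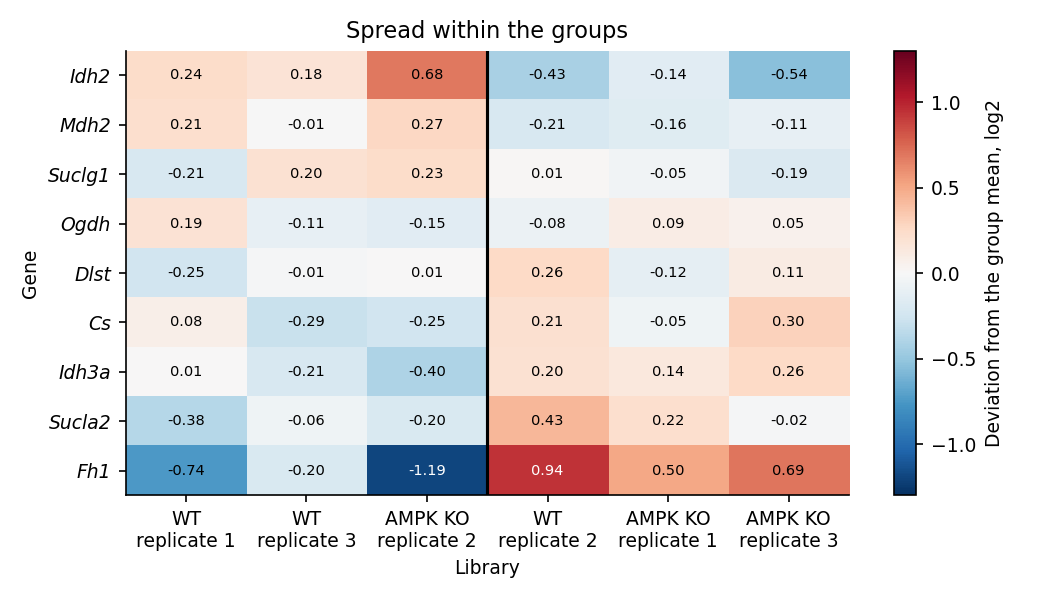
Deviation of each of the 9 enzymes (rows) from its group mean in each library (columns), as colour and printed value in log2 units; the black line separates the library sets found by the first principal component. Fh1 is low in the 3 libraries on the left and high in the 3 on the right, and Idh2 and Mdh2 show the opposite order.

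The first set holds 1 AMPK KO library and the second 1 WT library, so each comparison within a set has a single library on one side and is given as a value only. Without AMPK KO replicate 2, AMPK KO stands in the second set only. Without WT replicate 2, WT stands in the first set only. Genotype and set are then partly confounded, and how far this moves the adjusted p values of those leave-outs was not tested. Set against WT within the same set, Cs was 0.55 and 0.61 higher in AMPK KO in the first and second set. Idh2 was 0.55 and 0.93 lower. Fh1 was 0.23 and 0.60 higher. With a term for the sets in limma, the adjusted p was 0.0203 for Cs, 0.0328 for Idh2 and 0.0275 for Dld, with differences of 0.58, -0.74 and 0.66. That term was derived from the same libraries, and it also raised the number of genes past the threshold over the whole table from 637 to 1428 (12.7% of all genes tested). Over the 9 enzymes, the difference between the sets had a Pearson r of -0.45 with the GC content of the last 500 transcript bases. Over all 10381 genes it was -0.27. All points of both correlations come from the same 6 libraries.

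Pairs of enzymes deviated together or in opposition. Of the 36 pairs, the highest Pearson r of the deviations over the 6 libraries were 0.88 for Cs and Idh3a, 0.88 for Idh2 and Mdh2 and 0.87 for Idh3a and Fh1. The lowest were -0.98 for Fh1 and Mdh2, -0.96 for Idh2 and Fh1 and -0.94 for Idh3a and Idh2. Cells of 1 library feed each point, and the correlations are descriptions. The genes of these pairs also differed between the library sets, and the r of other gene pairs was not computed for comparison. The mean log2 level of the 9 enzymes ranged from 5.23 in WT replicate 1 to 5.47 in WT replicate 2. Among 6135 other genes with a mean log2 of at least 4, those most like this mean over the 6 libraries were Mfsd10 (r = 0.996), C1qbp (0.994), Lman2 (0.994), Mis18a (0.993) and Dctn6 (0.993). The median r of all these genes was -0.14. Most of the movement of this mean came from Fh1: without it, an alternative added after the data had been seen, the mean ran only from 5.57 in WT replicate 3 to 5.66 in WT replicate 2. The r of the 5 genes was 0.93 to 0.99 with Fh1 alone and 0.092 to 0.28 with the mean without it.

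Several cycle reactions also run in the cytosol, with enzymes from other genes, and these were set against the mitochondrial form within each library. This comparison was chosen after the values had been seen. Mdh1, cytosolic malate dehydrogenase, had log2 levels of 6.59, 6.64 and 6.50 in WT and 7.39, 7.56 and 7.15 in AMPK KO. It rose by 0.79 (SE 0.15, adjusted p of 0.0089 in limma), and all AMPK KO libraries were above all WT libraries. Without WT replicate 1, WT replicate 3 or AMPK KO replicate 1 its adjusted p was 0.0672, 0.0734 and 0.0627. Mdh1 minus Mdh2 was -1.57, -1.10 and -1.43 in WT and -0.35, -0.60 and -0.64 in AMPK KO, a gap between group means of 0.84 with no overlap. Idh1, cytosolic NADP-dependent isocitrate dehydrogenase, had 2.39, 3.17 and 1.60 in WT and 3.69, 3.41 and 3.94 in AMPK KO, a difference of 1.29 (SE 0.40, adjusted p of 0.0734 in limma). Without WT replicate 2 and without AMPK KO replicate 2 its adjusted p was 0.0249 and 0.0448, and on leaving out any other single library it was 0.179 to 0.271, with a difference of 0.90 without WT replicate 3. Idh1 minus Idh2 was -2.91, -1.46 and -3.63 in WT and -0.20, -1.31 and 0.44 in AMPK KO, a gap of 2.31 with no overlap, although AMPK KO replicate 2 and WT replicate 2 nearly met. Idh1 had only 18 to 170 reads per library. Second minus first library set was 0.79 for Idh1 and -0.83 for Idh2, and the sets hold the genotypes unevenly. Within the first and second set Idh1 was 1.41 and 0.64 higher in AMPK KO. How much of the gap comes from the sets was not tested.

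**Figure D4:**
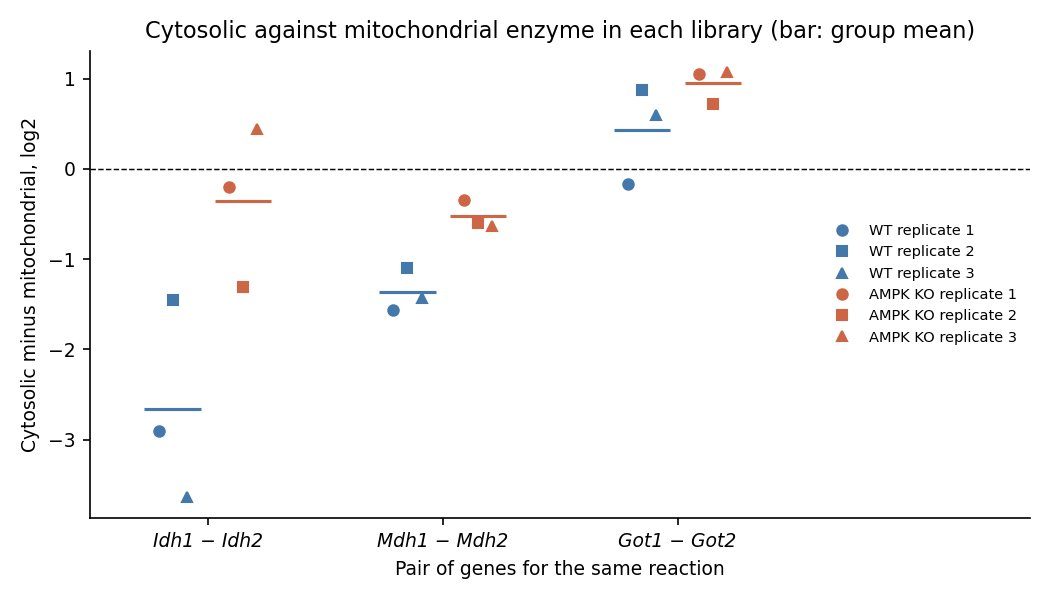
Log2 level of the cytosolic enzyme minus that of the mitochondrial enzyme (vertical axis) for 3 pairs of genes in each library, with group means as bars (n = 3). Idh1 minus Idh2 and Mdh1 minus Mdh2 are higher in all AMPK KO libraries than in any WT library, and Got1 minus Got2 overlaps.

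Got1 minus Got2, the aspartate aminotransferases of the malate-aspartate shuttle, was 0.44 ± 0.54 in WT and 0.95 ± 0.20 in AMPK KO (SD, n = 3), with overlap; the gap of 0.51 was 0.21 without WT replicate 1 and 0.73 without WT replicate 2. Since the pairs were chosen after their values were seen, these gaps are descriptions with no test.

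Of 43 genes in 5 neighbouring lists, 35 were tested, and 2 passed an adjusted p of 0.05 in limma, both higher in AMPK KO. The 5.65% over all genes counts both directions. They were Mdh1 and Got1. Got1, cytosolic aspartate aminotransferase, had log2 levels of 6.26, 6.94 and 6.56 in WT and 7.23, 7.18 and 7.28 in AMPK KO, and rose by 0.64 (SE 0.18, adjusted p of 0.0448 in limma). Its adjusted p was 0.229, 0.173, 0.16 and 0.0848 without WT replicate 1, WT replicate 3, AMPK KO replicate 1 and AMPK KO replicate 3, and 0.0524 in voom. Among 8 tested cytosolic counterparts and carriers, Idh1 and Mdh1 had groups that did not overlap, a share close to the 25.6% over all genes.

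Entry of pyruvate into the cycle, by its carrier, the pyruvate dehydrogenase complex and its kinases and phosphatases, had 12 tested genes. limma and voom called 0, and 3 were at an unadjusted p under 0.05, all higher, against 21.3% of all genes in both directions. Pdhb, the E1β subunit, was the only one of the 12 with groups that did not overlap (25.6% of all genes), at 6.13, 6.18 and 6.16 in WT and 6.64, 6.41 and 6.44 in AMPK KO, a difference of 0.34 (SE 0.16, adjusted p of 0.222 in limma). The median of the list was -0.05. Lipoylation and succinate dehydrogenase assembly had 5 tested genes, of which limma and voom called 0 and 2 were at an unadjusted p under 0.05, again beside 21.3% of all genes.

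Entry of amino acid carbon had 9 tested genes, with a median of 0.30, and Got1 was the 1 that passed (5.65% over all genes). Of the 9, 2 had groups that did not overlap, below the 25.6% over all genes, Got1 and the glutamine transporter Slc1a5, which was at 6.64, 6.55 and 6.58 in WT and 6.72, 7.06 and 6.90 in AMPK KO, a difference of 0.30 (SE 0.15, adjusted p of 0.275 in limma). Gpt2, mitochondrial alanine aminotransferase, had 0 reads in all WT libraries and 7, 35 and 4 reads in AMPK KO and was not tested. Of 3 relatives of cycle enzymes, Ogdhl and Dhtkd1 were at 0 in all 6 libraries. D2hgdh, the D-2-hydroxyglutarate dehydrogenase, had log2 levels of 1.97, 2.83 and 2.49 in WT and 2.73, 2.12 and 2.21 in AMPK KO, a difference of -0.08 (SE 0.39, adjusted p of 0.936 in limma).

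**Figure D5:**
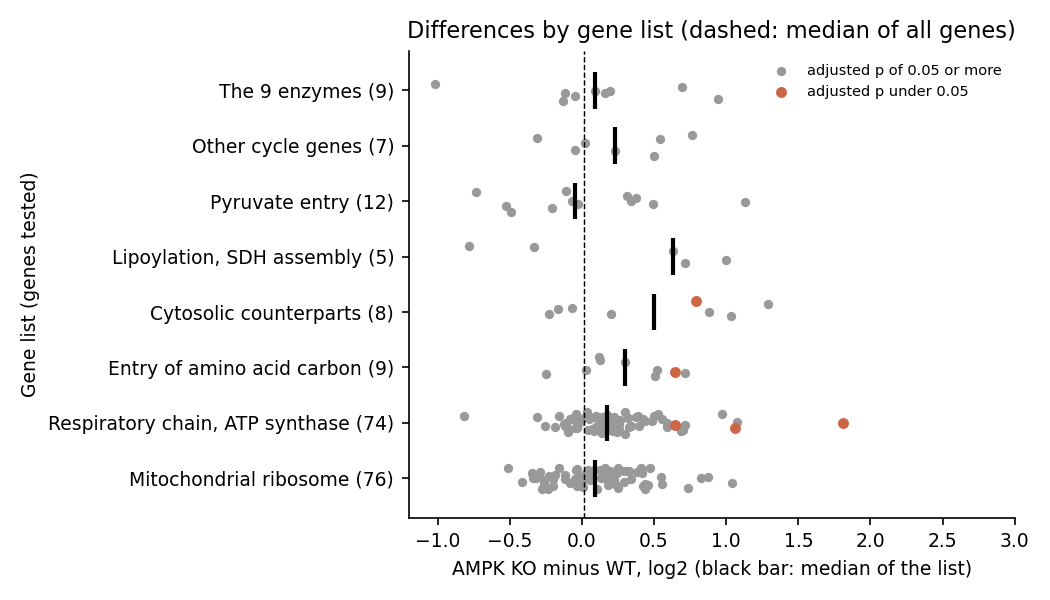
Difference between AMPK KO and WT (horizontal axis, log2) for each tested gene of 8 lists (rows, with the number of genes tested); coloured points passed an adjusted p of 0.05, black bars are list medians and the dashed line is the median of all tested genes. The 9 enzymes have no coloured point and scatter on both sides of the dashed line.

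Other mitochondrial gene families were read from the same fit. Of 74 tested subunits of the respiratory chain and ATP synthase, 3 were higher in AMPK KO and 0 lower, and the median difference was 0.17. The 5.65% called over all genes counts both directions, 287 of 11279 genes higher and 350 lower. At an unadjusted p under 0.05 there were 18, all higher (21.3% of all genes in both directions, 1194 higher and 1211 lower). Groups did not overlap for 16, all higher (25.6% of all genes in both directions, 1303 higher and 1584 lower). Both counts were larger shares than those of the higher genes alone over all tested genes. The 3 were Cox7c (1.06, adjusted p of 0.0137), Cox6a2 (1.81, adjusted p of 0.0322) and Uqcrb (0.64, adjusted p of 0.0396), all by limma. In voom Cox7c alone passed, with Uqcrb at 0.0512 and Cox6a2 at 0.0638, and without a filter on low values none of the 3 did (0.0584 for Cox7c, 0.121 for Cox6a2 and 0.0681 for Uqcrb). Uqcrb was at 0.0565 with scaling to reads outside Rn45s, and with a replicate block none of the 3 passed (0.095 for Cox7c, 0.144 for both others). Without WT replicate 1, WT replicate 3 or AMPK KO replicate 1 none of the 3 passed, with adjusted p values of 0.0734 to 0.169; Uqcrb was also at 0.0504 without AMPK KO replicate 2 and Cox6a2 at 0.0659 without AMPK KO replicate 3. Of 76 tested mitochondrial ribosomal protein genes limma and voom called 0, with 8 at an unadjusted p under 0.05 (21.3% of all genes), and their median was 0.09, as for the 9 enzymes. Whether the 9 enzymes differ from these families was not tested.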

How the data were processed

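The authors deposited 1 table per library, 3 WT and 3 AMPK KO, with log2 values of TMM-normalized CPM plus 1 for 23282 genes; 35 symbols stand on 79 lines. The processing notes name Bowtie2, bedtools and mm10; versions, annotation and the use of strand are not given in the sources used here. The libraries were prepared with the QuantSeq 3′ kit (500 ng of RNA each). Up to 100 reads, 100% of values lay within 0.1 of a whole read, so read numbers were recovered on this basis. Reads without molecular identifiers are not independent molecules.

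The 9 enzymes and all gene lists were chosen with earlier results of these data known. Genes with a mean log2 of at least 1 were fitted with limma 3.58.1 in R 4.3.3 (lmFit, eBayes with trend), with genotype as the only term. Tests were two-sided, adjusted by Benjamini-Hochberg over 11279 genes, with a threshold of 0.05. limma stands for this fit wherever an adjusted p is given. The study describes its samples as biologically independent, but the number of mice per sample is not given in the sources used here. Single genes were also tested by exact permutation (scipy 1.17.1). The genes named were the 9 enzymes, Prkaa1, the other cycle genes and relatives that are reported (a few genes of these lists are not reported here), and of other lists those past the threshold or with groups that did not overlap; the choice of the compartment pairs, the promoters shown, and Kmo and the values of markers followed their values or annotation. On data simulated from these libraries, 184 of 200 changed genes among 11279 were recovered with 9 false calls. The planted changes were larger than any difference of the 9 enzymes, and the simulated noise was independent, with no library sets. The recovery is therefore no measure of power for differences as small as those of the enzymes.

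Alternatives were quantile normalization, no filter, a filter of 3, a pseudocount of 0.25, robust spread, scaling to reads outside Rn45s, voom on recovered reads, a replicate block, a term for the library sets and leaving out each library. Positions came from GENCODE M21 (GRCm38) and start sites from RefSeq (GRCm38.p6). Plots used matplotlib 3.10.9.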

Additional observations from a re-analysis of the deposited data

How the results depend on the processing

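Of the 9 enzymes, 0 passed without a filter, with a filter of 3, a pseudocount of 0.25 or voom. There were 1 with quantile normalization (Cs), 1 with scaling to reads outside Rn45s (Idh2), 2 with robust spread and 2 with the term for the library sets (both Cs and Idh2), and 0 to 3 on leaving out a library, 3 without AMPK KO replicate 2 (Cs, Idh2 and Fh1). The cause was not tested. The number with groups that did not overlap was 2 with that scaling and 1 to 3 on leaving out a library. Of the other cycle genes, 1 passed with robust spread and 1 with the set term (Dld), and 0 to 2 on leaving out a library. Of the neighbouring genes, 1 passed without a filter, 1 with a pseudocount of 0.25, 1 with scaling to reads outside Rn45s, 1 with voom, and 0 to 5 on leaving out a library.

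Over all genes, 308 passed without a filter, where more low genes were tested, 1428 with the set term, and 127 to 1243 on leaving out a library: 127, 133 and 173 without WT replicate 1, WT replicate 3 and AMPK KO replicate 1, and 1243 without AMPK KO replicate 2. Scaling to reads outside Rn45s changed the split from 287 higher and 350 lower to 229 higher and 479 lower. Replicate numbers did not pair the samples: the correlations of same-numbered deviations were -0.08, -0.32 and -0.16. With a replicate block, 102 genes, 0 of the 9 enzymes and 0 neighbouring genes passed (Mdh1 had an adjusted p of 0.0696).

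The sign of Cs, Idh2, Ogdh, Suclg1 and Fh1 held in every alternative, but without WT replicate 1 Ogdh was -0.036 and Suclg1 0.094, and without AMPK KO replicate 2 they were -0.057 and 0.080. Other signs turned. Sucla2 was -0.0013 and Suclg2 -0.0068 with the set term, Idh3g 0.043 and Mdh2 0.072 with it, Mdh2 0.0051 with quantile normalization, and Sdhb -0.047 with scaling to reads outside Rn45s. On leaving out a library, Idh3a ranged from -0.25 to 0.083, Dlst from -0.033 to 0.22, Sucla2 from -0.031 to 0.37, Mdh2 from -0.18 to 0.061, Idh3g from -0.25 to 0.13, Suclg2 from -0.086 to 0.59 and Sdhb from -0.19 to 0.20. The median of the 9 was -0.031 to 0.20. Fh1 had the fewest reads of the 9, 35 to 285 per library, and an interval of -0.11 to 2.00.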
